A study of Homo sapiens with 2 samples.

Results

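The genes described here build the machinery that makes ribosomes: subunits and factors of RNA polymerases I and III, proteins of the small nucleolar ribonucleoproteins (snoRNPs), and factors that process ribosomal RNA (rRNA) and assemble the subunits. The 54 members were listed by gene symbol, and 52 of them had a probe set annotated to that gene alone, of 18417 genes measured in all. NOP56 was named only on a probe set shared with a small nucleolar RNA (snoRNA), and GNL3 was not analysed here. Expression was measured in H1299, an established line of human non-small cell lung carcinoma with no p53 of its own. One array was hybridised with total RNA of H1299 cells treated with p53 and 1 array with total RNA of H1299 negative control cells, both biotin-labelled. The sources used here do not state how p53 was delivered, for how long, or what the control cells received. With 1 array per group there are no replicates, so no value carries a replicate error or a p-value, and every difference compares these 2 arrays.

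RNA polymerase I transcribes the long rRNA precursor in the nucleolus, and RNA polymerase III makes the short rRNA of the large subunit, transfer RNAs and other small RNAs. Box C/D snoRNPs guide ribose methylation of the rRNA and box H/ACA snoRNPs guide pseudouridylation, while processome and assembly factors fold, cut and export the precursors. Ribosome production is tied to growth. p53 has been described to bind the polymerase I factor SL1 and the polymerase III factor TFIIIB, and unused ribosomal proteins bind MDM2 when ribosome assembly fails. Messenger RNA levels, the only readout here, do not measure rRNA output.

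The label check came out in the direction of the labels: CDKN1A, which encodes the cell cycle inhibitor p21, stood at log2 12.66 with p53 and 9.18 without, and MDM2 at 13.59 and 10.87. The 2 arrays had the same median log2 intensity to 2 decimals, 7.38, and 35.9% of probe sets held exactly equal values in both. Of 5 markers chosen for a carcinoma line 4 were above the intensity filter: the keratin genes KRT8 (12.84 with p53 and 12.52 without), KRT18 (12.47 and 12.78) and, barely, KRT7 (7.72 and 7.80), and VIM (12.92 and 13.07), which encodes the mesenchymal filament vimentin. The epithelial adhesion gene EPCAM was below the filter, at 5.72 in both arrays. Of 4 measured haematopoietic markers only CD68 was above it (11.01 and 11.40), and of 6 fibroblast and endothelial markers only COL1A1 (8.14 in both).

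Most of the ribosome biogenesis genes were lower in the p53 array. In bulk RNA, fewer cells with a transcript and less of it per cell cannot be told apart. A gene was kept when its 2 log2 values averaged at least 7.38, the median over all probe sets. This kept 51 of the 52 measured members, and TAF1A, which was dimmer, is described separately. Of the 51, 41 had a lower value with p53 (80.4%), 6 a higher value and 4 an equal value, whereas 50.7% of all kept genes had a lower value and 15.1% an equal one. The median difference (log2 with p53 minus log2 in the control, as for every difference below) was -0.40, against -0.01 over all 11103 kept genes. At least 1.5-fold lower were 21 members (41.2%), beside a background of 15.3% of all kept genes, and 2 were at least 1.5-fold higher, beside a background of 13.7%. At least 2-fold lower were 8 members (15.7%, background 5.67%), and at least 2-fold higher were 2, POLR1A and BRF1 (background 7.7%). With the trend of the difference on intensity removed by lowess, 17 of the 51 were at least 1.5-fold lower. Only 5 were at least 2-fold lower, since NOP58, DKC1 and RRS1 then fell short of 2-fold. The median was then -0.27, against 0.04 over all kept genes. Shares of all kept genes past a fold were computed on uncorrected values only. The 41 members at or above the 75th percentile of intensity had an uncorrected median of -0.40, beside -0.07 for all 5282 such genes. Without the filter, 22 of all 52 measured members were at least 1.5-fold lower (background 10.1% of all genes) and 9 at least 2-fold lower (background 3.7%), the added member being TAF1A, while the 2 higher members were the same (backgrounds 9.4% at 1.5-fold and 5.22% at 2-fold).

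**Figure D1:**
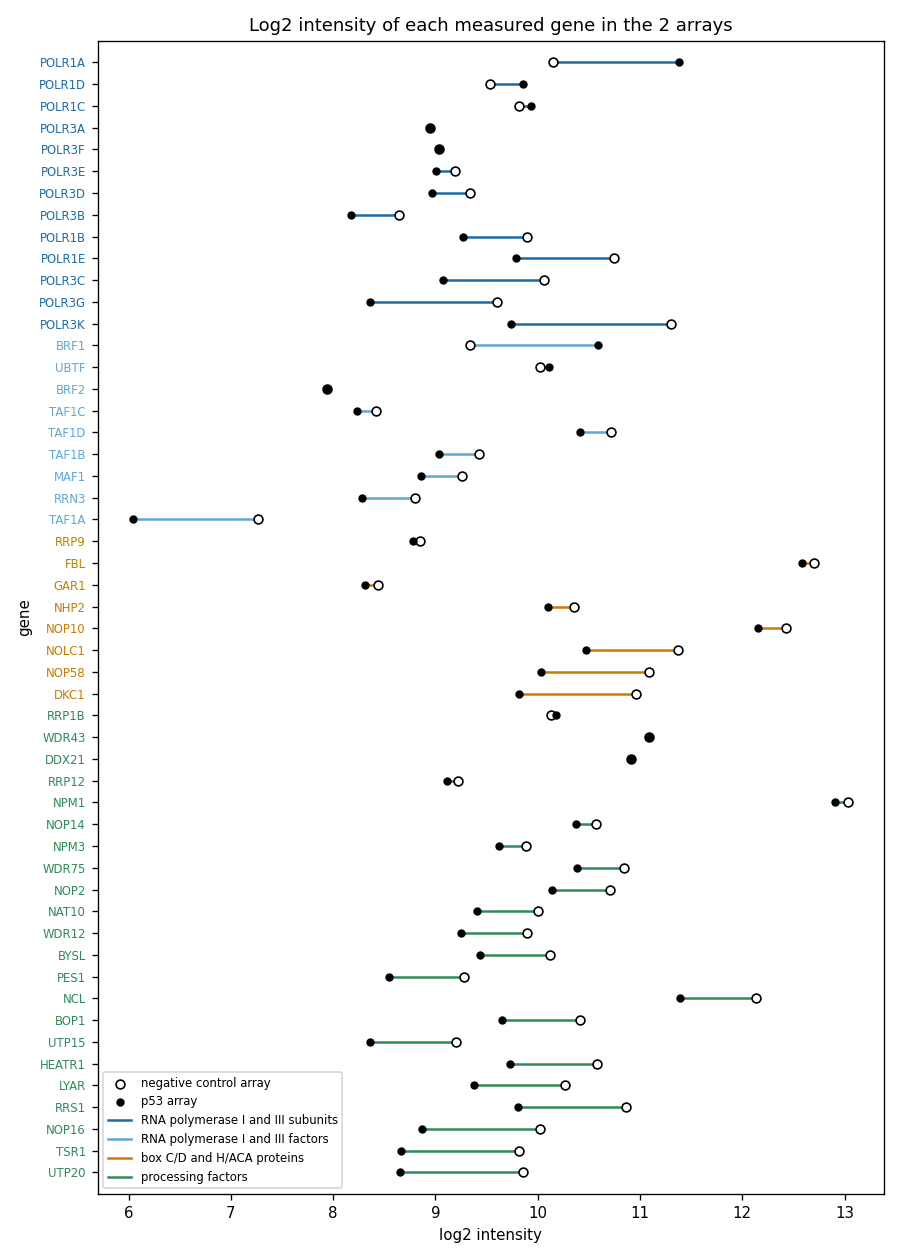
Log2 intensity of each of the 52 measured genes in the negative control array (open circles) and the p53 array (filled circles), joined by a line coloured by role; each point is 1 array. The filled circle lies to the left of the open one for most genes, and clearly to the right for POLR1A and BRF1.

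The promoters of these genes often held an E-box, the letters CACGTG, which MYC with its partner MAX and related factors are known to recognise. RefSeq windows (GRCh38.p14, from 250 bases before to 50 bases after each annotated start) were available for 41 of the 52 measured members, and 16 of them (39%) had the motif, which reads the same on both strands (a gene counted when any of its windows held it). It was in 7.26% of all 35116 windows and, counted by gene, in 10.9% of all measured genes with a window. Among kept genes with a window, it was in 40% of the members and 13% of all 8957. The share was 30% in the further kept pathway genes described below. Shown here are the 100 bases before the start, with the E-box in capitals, for the 6 members whose motif lay wholly within them, because they place the same letters beside differences that ran from -1.20 to 0.00.

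The 6 sequences read 5′ to 3′ along the gene and end at the base before the start. UTP20 is from chr12:101280005-101280104 (plus strand), LYAR from chr4:4290022-4290121 (minus), NAT10 from chr11:34105529-34105628 (plus), NOP10 from chr15:34343137-34343236 (minus), DDX21 from chr10:68956547-68956646 (plus) and POLR3A from chr10:78029516-78029615 (minus).
UTP20: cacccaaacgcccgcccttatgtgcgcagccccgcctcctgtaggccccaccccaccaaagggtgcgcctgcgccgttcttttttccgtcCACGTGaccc
LYAR: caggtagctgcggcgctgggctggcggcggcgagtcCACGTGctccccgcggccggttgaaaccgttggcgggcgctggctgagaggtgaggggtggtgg
NAT10: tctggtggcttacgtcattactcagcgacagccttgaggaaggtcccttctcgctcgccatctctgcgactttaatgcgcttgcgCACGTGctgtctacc
NOP10: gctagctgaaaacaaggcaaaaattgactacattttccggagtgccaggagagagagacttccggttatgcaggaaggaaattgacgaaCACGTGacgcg
DDX21: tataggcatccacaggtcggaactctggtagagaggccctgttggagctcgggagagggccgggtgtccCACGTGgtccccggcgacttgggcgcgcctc
POLR3A: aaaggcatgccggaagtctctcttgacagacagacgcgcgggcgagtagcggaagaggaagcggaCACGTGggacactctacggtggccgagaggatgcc

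The E-box did not go with a larger difference among the members. The 16 kept members with it had a median of -0.24 and the 24 kept members without it a median of -0.42, and 6 and 9 of them, in that order, were at least 1.5-fold lower. Among other genes of the pathway the order was the opposite: the 36 with an E-box had a median of -0.55 and the 84 without one a median of -0.33. Over all kept genes the medians with and without the motif were -0.06 and -0.02. In the sequences above, UTP20 (-1.20), LYAR (-0.89) and NAT10 (-0.60) were at least 1.5-fold lower, NOP10 (-0.27) was lower by less, and DDX21 (-0.01) and POLR3A (0.00) had nearly or exactly the same value in both arrays. A further motif, TTTGAA (also read as TTCAAA on the other strand), is the core of the cell cycle homology region of many mitotic promoters. It was present in 6 of the 41 members (14.6%), beside 15.7% of all measured genes with a window and 13.3% of the kept ones. Its holders were the higher POLR1A and BRF1, the lower WDR12 (-0.65) and TAF1A (below the filter), NPM3 (-0.26) and DDX21 (-0.01). The 5 kept members with it had a median of -0.01 and the 35 without it a median of -0.46. Over all kept genes these medians were -0.08 and -0.02.

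**Figure D2:**
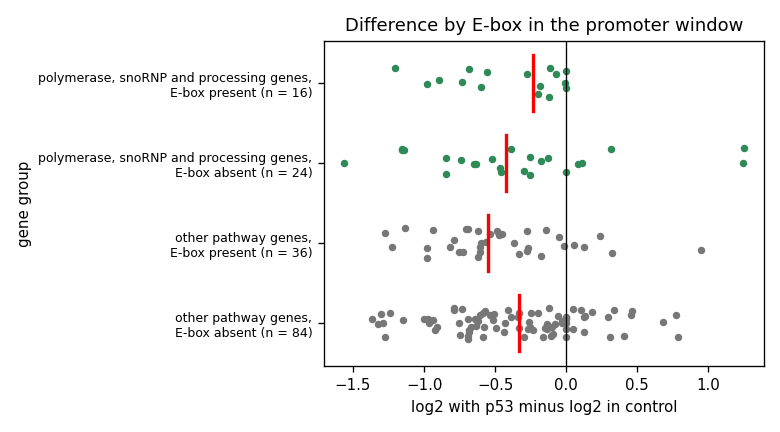
Difference between the arrays (horizontal axis, log2) for kept genes with a promoter window, split by an E-box in it; each point is a gene and the red bar is the median. The medians are -0.24 with and -0.42 without the motif for the polymerase, snoRNP and processing genes, and -0.55 and -0.33 for the other pathway genes.

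The subunits of RNA polymerase I did not move as a unit. POLR1A, the largest catalytic subunit, had log2 intensities of 11.39 with p53 and 10.15 without, a 2.36-fold higher level. POLR1B, the second catalytic subunit, stood at 9.27 and 9.90, a difference of -0.63. POLR1E, part of a dissociable heterodimer of the enzyme, stood at 9.78 and 10.74, a difference of -0.96. Thus the partner of POLR1A in the active centre was lower in the array in which POLR1A was higher. The 1.5-fold call of POLR1B was lost with the lowess trend removed, at -0.49. POLR1C and POLR1D, the assembly platform shared by polymerases I and III, were at 9.93 against 9.82 and at 9.85 against 9.54, small differences upward (0.11 and 0.32).

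Among the 8 subunits specific to RNA polymerase III, 6 were lower with p53, 2 were equal and no member was higher (median -0.42). Over all kept genes 50.7% were lower and 15.1% equal. At least 1.5-fold lower were 3 of the 8 (37.5%, background 15.3%). POLR3K, a small subunit that takes part in termination and RNA cleavage, had the lowest difference of all members, with 9.74 in the p53 array against 11.30 without p53, 2.96-fold lower. POLR3G, the form of this subunit associated with undifferentiated and proliferating cells, was at 8.36 against 9.60, 2.36-fold lower. Its paralogue POLR3GL, the form of most differentiated cells, was not a member and lay below the filter, with 7.15 in the p53 array and 6.24 without p53, a difference of 0.91 in the other direction. POLR3C, which forms a trimer with POLR3F and POLR3G, stood at 9.08 against 10.06, a difference of -0.98, just short of 2-fold. Within that trimer POLR3F held the same value in both arrays, 9.03. The remaining subunits differed by less than 1.5-fold: the second largest subunit POLR3B by -0.47, and POLR3D and POLR3E, which form a subcomplex active in initiation, by -0.37 and -0.19. POLR3A, the largest subunit, was equal in both arrays at 8.95.

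The 9 measured factors of the polymerases, TAF1A included, had a median of -0.30, beside -0.37 for the 13 subunits. Among the factors, BRF1 and TAF1A differed most. For polymerase I, RRN3, which links the enzyme to the promoter complex, was at 8.28 with p53 and 8.80 without (-0.52), below 1.5-fold. UBTF, the architectural protein that spans active rRNA genes, stood at 10.11 and 10.03 (0.09). The 4 SL1 subunits among the members, which bind the TATA-binding protein, all had lower values with p53 (50.7% of all kept genes did). TAF1B, TAF1D and TAF1C had differences of -0.39, -0.30 and -0.18. TAF1A had the largest, with 6.05 in the p53 array and 7.26 without p53, 2.32-fold lower, but both values lay below the filter level, and with an offset of 32 added before log2 its difference was -0.92, less than 2-fold.

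For polymerase III, BRF1, the TFIIIB subunit used at transfer RNA and short rRNA genes, stood at 10.59 with p53 and 9.34 without, 2.38-fold higher. BRF2, which takes its place at promoters of the U6 type, was equal in both arrays at 7.94. BDP1, another TFIIIB subunit and no member, was higher too, by 0.79. MAF1, the repressor of polymerase III, stood at 8.86 and 9.26, a difference of -0.40. So these 3 TFIIIB genes were higher or equal in the array in which 6 of the 8 polymerase III subunit genes were lower. In that array 50.7% of all kept genes were lower, and the contrast was not tested. The TATA-binding protein, also a TFIIIB subunit, was not analysed here.

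**Figure D3:**
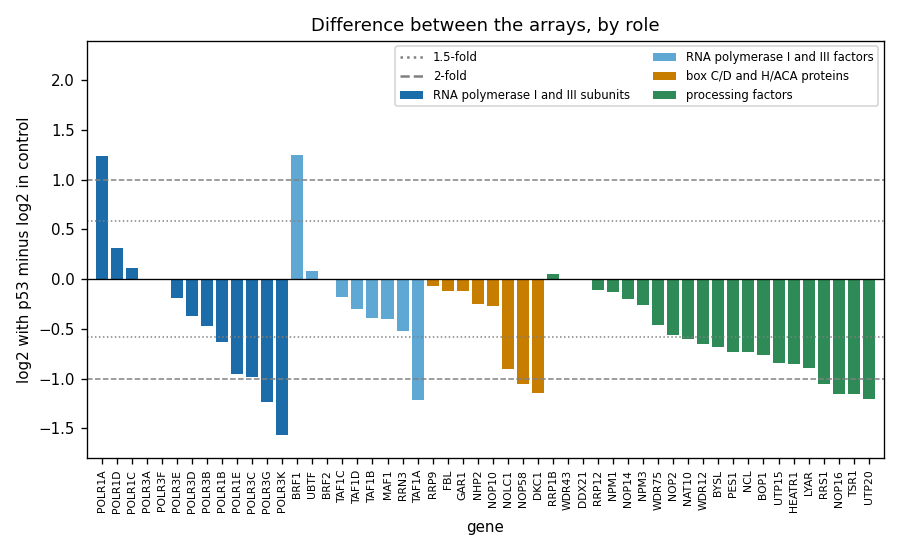
Difference between the arrays for each of the 52 measured genes (vertical axis, log2 with p53 minus log2 in the control), grouped and coloured by role and sorted within each role; dotted lines mark 1.5-fold and dashed lines 2-fold. Bars of all 8 snoRNP genes point down, processing factors reach from 0.05 to -1.20, and POLR1A and BRF1 alone pass the upper dashed line.

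All 8 measured snoRNP genes had lower values with p53 (50.7% of all kept genes did), with a median of -0.26. Of these, 3 were at least 1.5-fold lower (37.5%, background 15.3%). With the lowess trend removed RRP9 was at 0.05, on the other side of 0, and GAR1 at -0.02. DKC1, the pseudouridine synthase of H/ACA snoRNPs and of telomerase, stood at 9.82 with p53 and 10.96 without, 2.21-fold lower. Its 3 core partners differed by far less: NOP10 by -0.27, NHP2 by -0.25 and GAR1 by -0.12. The box C/D core showed the same unevenness, since NOP58, one of its scaffold proteins, was at 10.04 against 11.09, 2.07-fold lower, whereas the methyltransferase FBL was at 12.59 against 12.70 (-0.12). RRP9, the protein specific to the snoRNA of early small subunit processing, was at 8.78 against 8.85 (-0.07). NOLC1, a nucleolar chaperone that binds both snoRNP classes, stood at 10.48 against 11.38, a difference of -0.90. NHP2 had 2 probe sets, which gave -0.25 and -0.18.

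Processing factors had the lowest median of the role groups, -0.67. Of 22 measured, 13 were at least 1.5-fold lower (59.1%, background 15.3%) and none was 1.5-fold higher (background 13.7%). At least 2-fold lower were 4 (18.2%, background 5.67%). NAT10, BYSL and WDR12, counted among the 13, lost the call with the lowess trend removed. Among the nucleolar phosphoproteins, NCL (nucleolin), which binds the nascent precursor, stood at 11.39 with p53 and 12.13 without (-0.74). NPM1 (nucleophosmin), the major protein of the granular nucleolus, stood at 12.91 and 13.03 (-0.13), and its relative NPM3 at 9.62 and 9.88 (-0.26). The 4 probe sets of NPM1 ran from -0.22 to -0.13. NPM1 has many processed pseudogenes, so its probe sets may read more than the gene itself.

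Small subunit factors included the lowest processing factor. UTP20, a scaffold of the processome, stood at 8.66 with p53 and 9.86 without, 2.30-fold lower. TSR1, a GTPase-like protein of late small subunit maturation, was at 8.67 against 9.82, 2.23-fold lower. HEATR1 (9.73 against 10.58) and UTP15 (8.36 against 9.20), both of the UTP-A complex that links rRNA transcription to processing, were lower by close to the same amount, with differences of -0.85 and -0.84. BYSL, needed for export-competent small subunits, was at 9.43 against 10.12 (-0.69). NAT10, the rRNA cytidine acetyltransferase, was at 9.41 against 10.01 (-0.60), so near to 1.5-fold that lowess correction, quantile normalization or the offset each took it below. BYSL also lost the 1.5-fold call with the lowess trend removed. The rest were nearer to 0: WDR75 differed by -0.46, NOP14 by -0.20 and RRP12 by -0.11, and WDR43 was equal in both arrays at 11.09. WDR75 and WDR43 are also of UTP-A, so the genes of that complex did not differ evenly.

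Large subunit factors had a median of -0.73 over 9 measured genes. NOP16 (8.87 with p53 and 10.02 without) and RRS1 (9.80 and 10.86), which brings the short rRNA particle into the large subunit, were 2.22-fold and 2.08-fold lower. LYAR, a nucleolar zinc finger protein, was at 9.38 against 10.27 (-0.89). The 3 genes of the PeBoW complex, which acts in middle steps of large subunit assembly, lay close together: BOP1 at 9.65 against 10.42 (-0.77), PES1 at 8.54 against 9.28 (-0.73) and WDR12 at 9.25 against 9.90 (-0.65). All 3 were at least 1.5-fold lower (background 15.3% of all kept genes), WDR12 not with the lowess trend removed (-0.50). The membership of this complex, as of those below, was written down after values were known. The second probe set of BOP1 gave -0.67. NOP2, an rRNA cytosine methyltransferase, stood at 10.14 and 10.70 (-0.56), below 1.5-fold. The RNA helicase gene DDX21 (10.91 and 10.92) and RRP1B (10.18 and 10.13) differed by -0.01 and 0.05.

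A wider list of 147 further pathway genes, drawn from general knowledge of the process with earlier results of these data known, had a median close to that of the members. Of its 136 kept genes, 107 had a lower value with p53 (78.7%, beside 50.7% of all kept genes), with a median of -0.43. At least 1.5-fold lower were 51 (37.5%, background 15.3%), and at least 1.5-fold higher were 4 (background 13.7%). None was 2-fold higher (background 7.7%). At least 2-fold lower were 11 (8.09%, background 5.67%). They were ZNHIT6 (8.75 with p53 and 10.12 without, -1.37), a box C/D assembly factor, the processome genes WDR3 (7.26 and 8.56, -1.30) and EMG1 (9.14 and 10.42, -1.27), and the exosome genes EXOSC2 (10.64 and 11.96, -1.32), EXOSC8 (8.23 and 9.52, -1.29) and EXOSC9 (8.43 and 9.58, -1.15). The large subunit assembly genes MRTO4 (9.11 and 10.39, -1.28), NIP7 (10.51 and 11.75, -1.24), NOC3L (8.03 and 9.25, -1.23), PAK1IP1 (9.98 and 11.12, -1.14) and the export adaptor NMD3 (9.41 and 10.42) made up the rest.

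By role, the polymerase genes of the wider list lay nearest to 0. Its 18 kept polymerase I and III genes had a median of 0.03. At least 1.5-fold lower were 3 (16.7%, close to the background of 15.3%), and 2 were at least 1.5-fold higher (background 13.7%). Its 45 small subunit genes had a median of -0.48, its 51 large subunit genes -0.47, its 8 snoRNP genes -0.59 and its 14 exosome genes -0.60. Single complexes, whose membership was written down after values were known, varied in how evenly they differed. All 6 genes of UTP-B, which joins the early processome, were lower (50.7% of all kept genes were), from -1.30 (WDR3) to -0.16 (WDR36). In UTP-A, which takes in 4 members, 4 of 6 genes were lower and NOL11 was at 0.46. The exosome is a complex that trims rRNA precursors. Of its 9 core genes, EXOSC1 to EXOSC9, 5 were at least 1.5-fold lower (background 15.3%), and EXOSC1 was at 0.20. The 6 genes of TFIIIC, which recognises polymerase III promoters, ran from -0.75 (GTF3C5) to 0.46 (GTF3C3) around a median of 0.09.

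Like machinery outside ribosome assembly was set beside these genes. The 34 measured cytosolic ribosomal protein genes, the cargo of the assembly line, had a median of 0.03 and none passed 1.5-fold in either direction. Among all kept genes 15.3% were at least 1.5-fold lower and 13.7% at least 1.5-fold higher. The 57 mitochondrial ribosomal protein genes had a median of -0.27, with 12 at least 1.5-fold lower (21.1%, background 15.3%) and 4 at least 1.5-fold higher (background 13.7%). By sign alone they were like the ribosome biogenesis genes, since 46 of the 57 (80.7%) had a lower value with p53, beside 50.7% of all kept genes. The 7 RNA polymerase II subunits that other polymerases do not share had a median of -0.25. Of these, 1 was at least 1.5-fold lower (14.3%, background 15.3%), POLR2B (-0.65). POLR2A and POLR2B, the counterparts of POLR1A and POLR1B, also lay on opposite sides of 0, with POLR2A at 11.21 with p53 and 10.65 without (0.56). The differences between these lists were not tested.

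**Figure D4:**
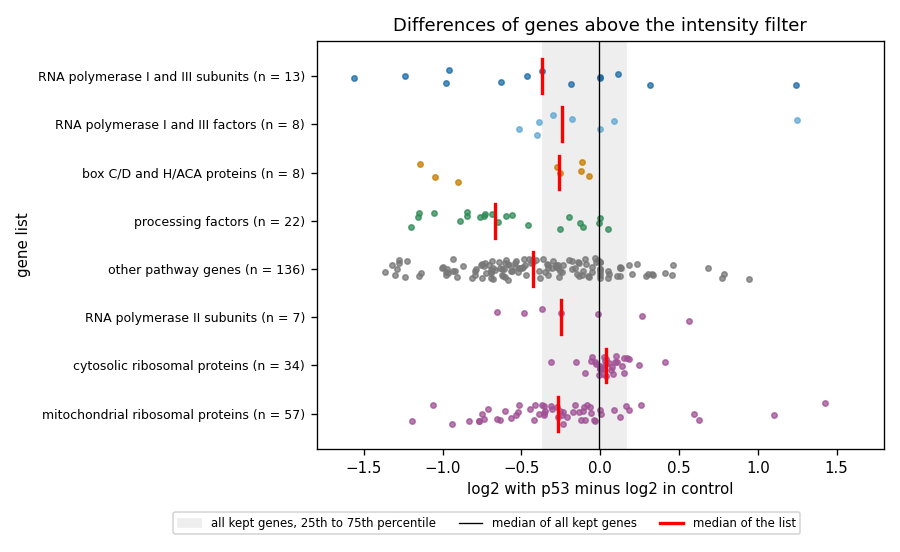
Differences between the arrays (horizontal axis, log2) for the kept genes of each list, 1 point per gene, with the list median as a red bar; the grey band spans the 25th to 75th percentile of all kept genes and the black line is their median. Processing factors have the lowest median (-0.67), and the cytosolic ribosomal protein genes gather around 0.03.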

How the data were processed

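Total RNA was labelled with biotin and hybridised to 1 array per group. The authors summarised each probe set with RMA and deposited log2 intensities, per the submitters' processing notes. The sources used here give no RMA version or genome build, and the log2 scale was read from the values. Such summaries equalise arrays, so a shift of total RNA per cell cannot be seen, and the number of arrays limits the precision.

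Of 33297 probe sets, 19460 had 1 gene symbol in GEO's platform annotation, 1754 had several and 12083 had none, and only the first kind was used. Symbols were updated by gene identifier to RefSeq (GRCh38.p14). The brightest probe set stood for a gene. Genes with a mean log2 value of at least 7.38 were kept. Calls are by size (1.5-fold and 2-fold), since 1 array per group allows no test. Alternatives were 3 filters, a 3-fold threshold, centring, lowess (span 0.3), the mean of probe sets, quantile normalization and an offset of 32. Named were all members (with both values where past 1.5-fold or at the ends of a role group), further pathway genes past 2-fold, CDKN1A and MDM2; other names were chosen after their values were seen. Members and lists were chosen with earlier results of these data known. Python 3.11.15, numpy 2.4.6, pandas 2.3.3, statsmodels 0.14.6 and matplotlib 3.10.9 were used.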

Additional observations from a re-analysis of the deposited data

Results flagged for a closer look

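A probe set annotated to both the snoRNA SNORA40 and its host gene TAF1D, which no gene value uses, was higher with p53, at 9.18 against 7.91 in the control, a difference of 1.27. Its place in the genome was not examined, so its signal cannot be assigned to the TAF1D locus. A second probe set with the same pair of names differed by -0.23, and the probe set of TAF1D alone by -0.30.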

How the results depend on the processing

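Signal and arrays set the limits: 1 array per group gives no error, and a value was taken as moved when a median shifted by more than 0.1 or a count by more than 1.5 times. Removal of the lowess trend had the widest effect: members at least 2-fold lower went from 8 to 5, and medians went from -0.40 to -0.27 for the members, -0.37 to -0.24 for polymerase subunits, -0.24 to -0.12 for polymerase factors, -0.67 to -0.52 for processing factors and -0.43 to -0.30 for the wider list. The filter at the 75th percentile left 6 snoRNP genes, with a median of -0.59 in place of -0.26. At 3-fold, 0 members were lower and 0 higher. All other counts and medians of these groups stayed within those limits under the 8 alternatives, and among the 193 genes followed singly, none that passed 1.5-fold changed sign. Some smaller differences did so with the lowess trend removed, among them RRP9 (to 0.05), RRP12 (to 0.02) and DDX21 (to 0.12). No paired analysis was possible because each group has 1 array and the values come from no test.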

Other observations

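Other probe sets shared by a member and a further gene were not used for the gene values. The probe set annotated to SNORD56 and NOP56, the remaining box C/D scaffold, stood at 8.28 with p53 and 9.11 without, a difference of -0.83. The one annotated to SNORA56 and DKC1 stood at 7.61 and 9.20, a difference of -1.60, beside -1.14 for DKC1 alone, whereas that of SNORA36A, MIR664B and DKC1 differed by -0.07. The 3 probe sets that RRN3 shares with its pseudogenes differed by -0.44, -0.46 and -0.48, close to the -0.52 of RRN3 alone. Those that TAF1D shares with SNORD5, SNORA8, SNORA1 and SNORD6 differed by -0.43, -0.36, -0.06 and 0.01.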
